A study of Rattus norvegicus with 6 samples.

Results

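Wnt signaling genes that act at or near the cell surface were read on Affymetrix rat 230 2.0 arrays of a rat β-cell line in which COUP-TFII, a nuclear receptor encoded by Nr2f2, had been depleted. The genes were the Wnt ligands, the enzymes and carriers that make and export them, the frizzled receptors and coreceptors, the secreted antagonists, the R-spondin axis and the intracellular Dishevelled, Dact and Naked cuticle proteins. They were chosen by gene symbol alone: a probe set belonged if its annotation held a single symbol of one of these families. The choice gave 72 probe sets for 47 genes, out of 20826 probe sets with 1 symbol and 31042 probe sets in all that were not controls. Of 65 RefSeq gene symbols that fit the same rule, 47 had such a probe set and the other 18 were not analysed here.

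The cells were 832/13 INS-1, a line derived from a rat insulinoma and selected as a clone, so every array came from the same clonal line and not from separate animals. They were kept between passages 7 and 25 in medium with 11 mM glucose, and the labels name no other agent and no genetic change. Cells electroporated with COUP-TFII siRNA (3 arrays) were compared with cells electroporated in parallel with a scrambled siRNA (3 arrays), and the transfection protocol of the study gives 48 h of culture afterwards. The labels call the arrays of a group biological replicates and number them 1 to 3 in both groups. In such bulk RNA, fewer cells of a kind and less RNA per cell cannot be told apart.

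Wnt proteins are lipid-modified in the endoplasmic reticulum by the acyltransferase Porcn, carried to the surface by Wls, and bound there by frizzled receptors together with Lrp5 or Lrp6. The receptor complex recruits Dishevelled, which frees β-catenin from its degradation complex so that it can act with TCF and LEF factors on target genes; Ryk, Ror1 and Ror2 serve other branches. Secreted antagonists of the Sfrp, Dkk and Wif families hold ligands or coreceptors back, and R-spondins acting through Lgr receptors protect frizzleds from the ubiquitin ligases Znrf3 and Rnf43. In β-cells this pathway is known for its part in proliferation and in the response to incretin hormones.

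Nr2f2 itself was read first, as a check of the labels. On the probe set 1389554_at it had a mean signal of 32.8 ± 12.4 (SD, n = 3) with COUP-TFII siRNA and 199 ± 31.5 with the scrambled siRNA, or -2.65 as a log2 fold change. The adjusted p of limma was 0.404 in the unpaired fit and 0.0185 with the replicate number as a block, and the arrays of the groups did not overlap. Of its other probe sets, 1370063_at differed by -1.71, and 1395863_at, under background, by -0.37. A probe set is called above background here when the mean of at least 1 group exceeded 20.7, the highest signal on the 6 arrays of the 27 control probe sets for Bacillus genes, which rat cells lack. β-cell markers matched the labelled line, since 10 of 10 measured ones were above background, while 0 of 6 fibroblast and 0 of 2 δ-cell markers were. Single markers of other cell types were also above it: glucagon (Gcg), 1 of 2 α-cell markers, whose list summed to between 395 and 8070 over the 6 arrays with overlapping groups, Ctrb1 of 6 acinar, Cd68 of 3 immune and Kdr of 2 endothelial markers. Of 3 measured duct markers, 2 (Krt7 and Muc1) were above background, while the defining marker Krt19 was under it. The summed signal of all 3 ran from 391 to 461 with COUP-TFII siRNA and from 471 to 555 with the scrambled siRNA, without overlap. Most of this sum was Krt7, at 400 ± 29.4 against 468 ± 55.0 (SD). Its log2 fold change was -0.22 (SE 0.14, unadjusted limma p of 0.155). Muc1 differed by -0.44 (SE 0.55) and Krt19 by -0.97 (SE 1.09). The part of these cells or genes in the values below was not tested. The BioB and BioC hybridization controls read 134 and 95.0 on the arrays numbered 2 and between 274 and 327 on the other 4 arrays.

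The promoters of 4 members are shown as examples. Dact1, Porcn and Frzb each had a probe set on which the groups did not overlap, for Frzb with both means under background. Dact2 and Frzb hold a nuclear receptor half-site, as do Wnt16 and Wnt2, whose windows are not shown. Each window is 300 bases of the gene's own strand, 250 before the RefSeq start and 50 from it on, in the build GRCr8, and capitals mark the half-site AGGTCA as read on either strand. Dact1 lies at chr6:95526440-95526739 (plus strand), Porcn at chrX:16957584-16957883 (plus strand), Dact2 at chr1:63863049-63863348 (minus strand) and Frzb at chr3:85772047-85772346 (minus strand).
Dact1: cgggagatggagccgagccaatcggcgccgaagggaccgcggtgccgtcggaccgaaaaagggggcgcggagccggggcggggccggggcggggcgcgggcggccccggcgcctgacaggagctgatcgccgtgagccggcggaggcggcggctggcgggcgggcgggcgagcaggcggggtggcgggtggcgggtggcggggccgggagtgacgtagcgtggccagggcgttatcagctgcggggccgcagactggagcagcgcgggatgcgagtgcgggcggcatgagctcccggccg
Porcn: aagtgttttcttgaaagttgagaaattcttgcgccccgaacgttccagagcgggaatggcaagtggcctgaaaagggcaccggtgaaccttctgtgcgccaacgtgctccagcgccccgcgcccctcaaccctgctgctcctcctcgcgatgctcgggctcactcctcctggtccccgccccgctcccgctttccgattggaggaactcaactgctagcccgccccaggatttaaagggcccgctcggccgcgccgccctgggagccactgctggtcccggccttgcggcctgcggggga
Dact2: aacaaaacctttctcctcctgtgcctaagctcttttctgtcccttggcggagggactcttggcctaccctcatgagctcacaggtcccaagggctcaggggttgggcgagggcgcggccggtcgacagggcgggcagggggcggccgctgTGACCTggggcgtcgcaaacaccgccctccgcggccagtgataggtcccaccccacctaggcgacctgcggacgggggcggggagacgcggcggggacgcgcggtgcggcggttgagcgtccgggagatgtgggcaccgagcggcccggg
Frzb: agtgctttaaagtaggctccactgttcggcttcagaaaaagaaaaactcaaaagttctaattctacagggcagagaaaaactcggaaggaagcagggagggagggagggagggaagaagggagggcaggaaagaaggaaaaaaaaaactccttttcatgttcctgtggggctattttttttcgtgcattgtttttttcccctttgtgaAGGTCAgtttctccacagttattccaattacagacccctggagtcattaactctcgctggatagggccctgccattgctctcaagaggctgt

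RefSeq promoter windows were at hand for 34 of the 47 genes. AGGTCA, a half-site that COUP-TFII and other nuclear receptors bind, was found on either strand in 4 of the 34 windows (Dact2, Frzb, Wnt16 and Wnt2), which is 11.8% beside 15.7% of all 27457 windows. In Dact2 it lay on the strand opposite to the gene with its first base in the window 100 bases before the start, and in Frzb on the gene's strand 42 bases before it. A direct repeat of the half-site with 1 base between its copies, which holds AGGTCA 2 times, was in 0 member windows and in 0.0583% of all. CTTTGAT, a core recognized by TCF and LEF factors, was in 1 member window (Nkd1, 2.94%) and in 3.62% of all. A match describes letters and not a bound site, and windows such as those of Dact1 and Porcn, without a match, say nothing of binding elsewhere.

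Many members were at or below background in this line. Of the 72 members 29 (40.3%), which cover 25 genes, had a group mean above the Bacillus scale of 20.7, against 62.5% of all probe sets and 69.3% of those with 1 symbol. On all 6 arrays 18 members were above it, and on no array 31. The number above it on an array ran from 21 (29.2%) on scrambled siRNA replicate 2 to 32 (44.4%) on scrambled siRNA replicate 3. By role, 5 of 17 probe sets for ligands, 3 of 3 for Porcn and Wls, 4 of 9 for frizzleds, 3 of 5 for coreceptors, 3 of 17 for antagonists and Kremen, 3 of 6 of the R-spondin axis and 8 of 15 for the intracellular proteins were above it.

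**Figure D1:**
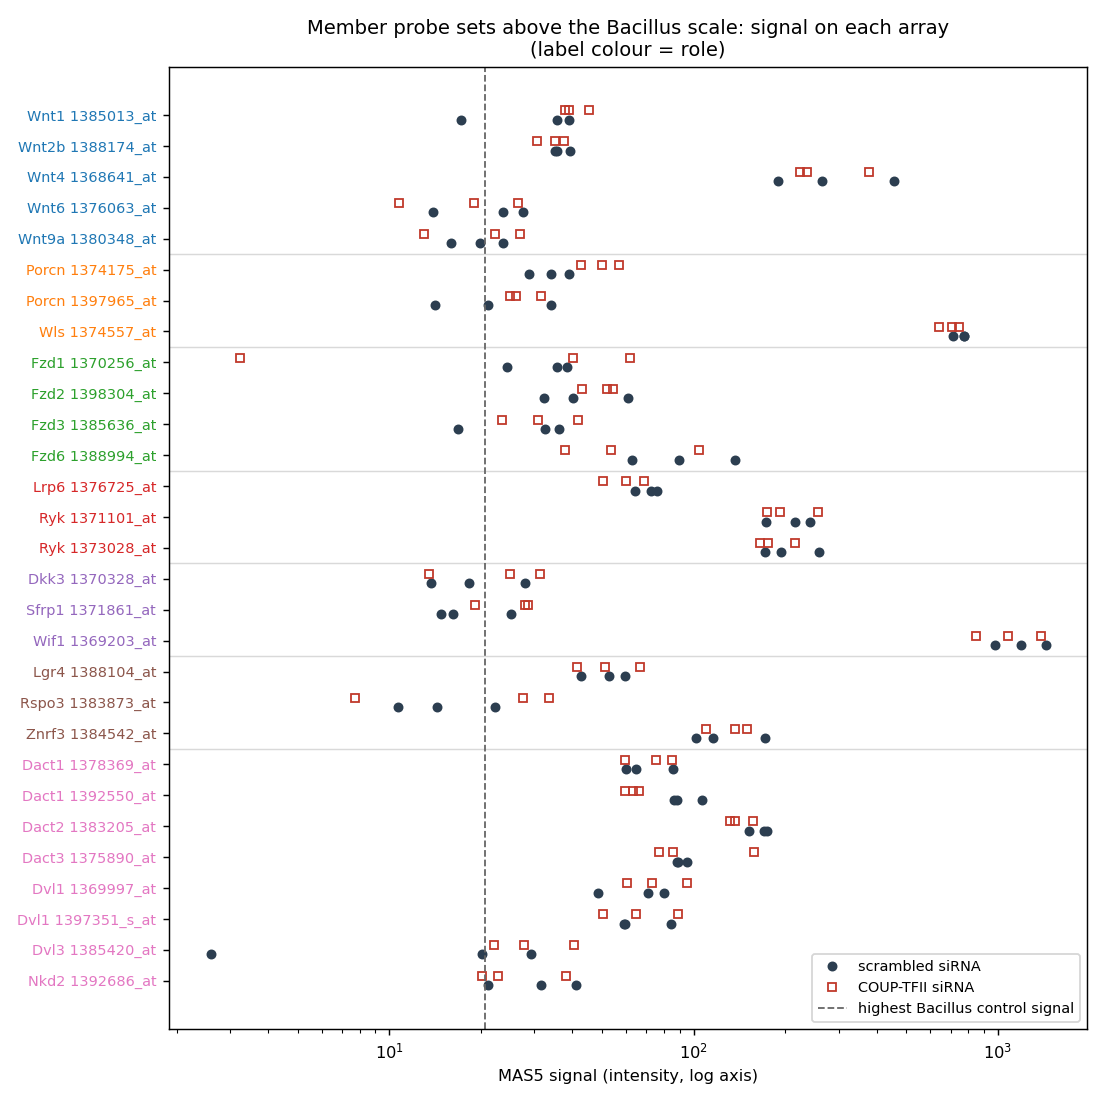
Signal of the 29 member probe sets above the Bacillus scale on each of the 6 arrays, on a log axis of MAS5 intensity, grouped by role; open squares are the 3 COUP-TFII siRNA arrays, filled circles the 3 scrambled siRNA arrays, and the dashed line is the Bacillus scale of 20.7. Squares and circles are apart for the Dact1 probe set 1392550_at and the Porcn probe set 1374175_at and overlap for the other 27.

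No member passed Benjamini-Hochberg adjustment over all probe sets. In the unpaired limma fit 0 of 72 members and 0 of 31042 probe sets (0%) had an adjusted p under 0.05, and with the replicate block 0 members and 5 probe sets (0.0161%) had one. At an unadjusted p up to 0.05, 2 members were lower with COUP-TFII siRNA (2.78%, against 1.34% of all probe sets) and 0 were higher (against 0.973%). By signal level, 1 of the 43 members under background was lower, beside 237 of all 11653 probe sets under it. Above background it was 1 of 29 members, beside 178 of 19389 probe sets. The members lower at this threshold were one probe set each of Dact1 and Wnt6. With the replicate number as a block, Fzd6 joined them, which made 3 lower members (4.17%, against 3.51% of all) and 0 higher ones (against 2.72%). The methods' t-test at their threshold gave 3 lower members (Dact1, Frzb and 1397754_at, annotated Dkk3) and 1 higher member (Porcn), of which 0 remained after Benjamini-Hochberg adjustment. The share of all probe sets called by that test was not counted, so its counts stand without a background share. Leaving out COUP-TFII siRNA replicate 1 or 2 or scrambled siRNA replicate 2 brought the unpaired count of lower members to 1, and leaving out replicate 3 of the scrambled group brought it to 0. Without COUP-TFII siRNA replicate 2 the member left was Wnt6. Without COUP-TFII siRNA replicate 1 or scrambled siRNA replicate 2, Dact1 and Wnt6 were both over the threshold, and the member counted was another one. The share of all probe sets called in these fits was not counted.

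Groups that did not overlap gave a similar picture. All 3 COUP-TFII siRNA arrays were below all 3 scrambled siRNA arrays for 4 members (one probe set each of Dact1, Wnt6 and Frzb, and 1397754_at, annotated Dkk3), where 3.49% of all probe sets did so, and above them for 1 member (Porcn), where 3.25% of all did so. The exact permutation p of each of these 5 was 0.1, two-sided, which is the smallest that 3 arrays against 3 can give. Within the pairs of arrays of the same number, 12 members were lower in 3 of 3 pairs (16.7%, against 14.3% of all), and 3 were higher in 3 of 3 (4.17%, against 13.6% of all), namely one probe set each of Dvl1, Porcn and Sfrp1.

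**Figure D2:**
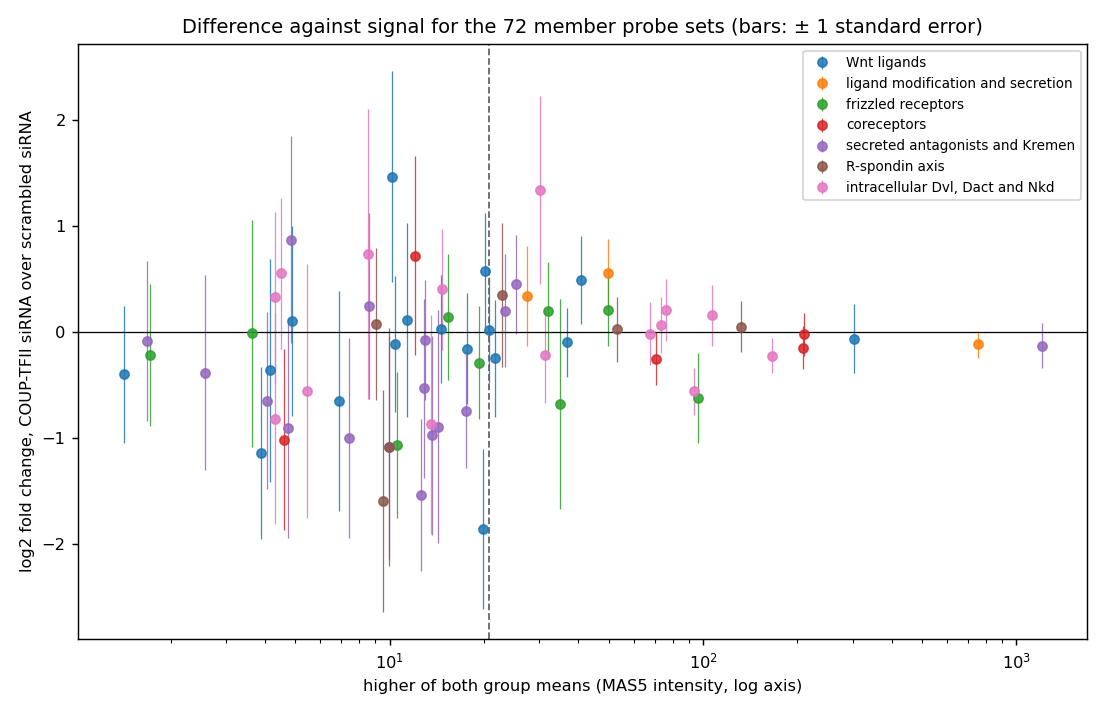
Log2 fold change of COUP-TFII siRNA over scrambled siRNA for the 72 member probe sets (points, coloured by role, with bars of 1 standard error from limma) against the higher of both group means, on a log axis of MAS5 intensity. The dashed line is the Bacillus scale of 20.7; left of it the standard errors have a median of 0.85, right of it 0.33.

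Of the 17 probe sets for 13 Wnt ligands, 10 were lower (where 50.4% of all probe sets were) and 7 higher by mean. Wnt4, a ligand known from kidney and gonad development, gave signals of 379, 224 and 235 on COUP-TFII siRNA arrays 1 to 3 and 455, 264 and 189.5 on scrambled siRNA arrays 1 to 3. The groups overlapped and the log2 fold change was -0.064 (SE 0.33), with the pairs differing in sign. Wnt1, the founding ligand of the β-catenin branch, read 37.8, 45.3 and 38.8 against 39.1, 17.2 and 35.7, a difference of 0.49 (SE 0.42) in which scrambled siRNA replicate 2 stood apart as the low array. Wnt2b, another ligand above background on all 6 arrays, differed by -0.098 (SE 0.33).

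Wnt6 was read by 2 probe sets that differed in their values. On 1391914_at it gave 2.19, 13.0 and 5.67 with COUP-TFII siRNA and 19.3, 17.9 and 22.4 with the scrambled siRNA. Each COUP-TFII siRNA array was below each scrambled array, but both group means, 6.95 ± 5.51 and 19.9 ± 2.30 (SD, n = 3), were under the Bacillus scale. The log2 fold change was -1.86 (SE 0.76), with an exact permutation p = 0.1, an unadjusted limma p of 0.0373 and an adjusted p = 1, and it was -0.038 when signals under the Bacillus scale were set to it. The unadjusted limma p was over 0.05, from 0.0683 to 0.111, when any array other than COUP-TFII siRNA replicate 2 was left out, and leaving out COUP-TFII siRNA replicate 1 moved the difference to -1.21. The other probe set, 1376063_at, read 19.0, 26.4 and 10.8 against 27.6, 13.9 and 23.5, with overlapping groups and a log2 fold change of -0.25 (SE 0.55).

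The remaining ligands, Wnt2, Wnt5a, Wnt5b, Wnt7a, Wnt8b, Wnt9a, Wnt10a, Wnt11 and Wnt16, had log2 fold changes between -1.14 (Wnt11) and 1.47 (Wnt5b, SE 1.00). Only Wnt9a among them had a group mean above the Bacillus scale, and its difference was 0.015. For Wnt5b, the COUP-TFII siRNA mean of 10.1 ± 9.93 and the scrambled mean of 2.26 ± 0.155 were both below it.

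Porcn, the acyltransferase that lipid-modifies Wnt ligands before they are secreted, was read by 2 probe sets, of which 1 separated the groups, with the COUP-TFII siRNA arrays above the scrambled ones. On 1374175_at the signals were 50.0, 42.7 and 56.7 with COUP-TFII siRNA and 28.8, 39.0 and 33.9 with the scrambled siRNA. All arrays were above the Bacillus scale, and the lowest COUP-TFII siRNA array was above the highest scrambled one, with the groups nearest to each other in pair 2. The means were 49.8 ± 6.99 and 33.9 ± 5.12 (SD, n = 3), a ratio of 1.47 and a log2 fold change of 0.56 (SE 0.32), with an unadjusted limma p of 0.115, an adjusted p = 1 and an exact permutation p = 0.1. The methods' t-test on the same log2 values gave an unadjusted p of 0.0325 and, after Benjamini-Hochberg adjustment over all probe sets, 1; limma shares the spread over all probe sets and that test does not. This Porcn probe set, the Frzb probe set 1375961_at and the probe set 1397754_at are in the list of Wnt genes that the study selected on these same arrays, so their separation is not independent evidence of a direction. The platform annotation used here assigns 1397754_at to Dkk3, and the study's list assigns it to Wwp1.

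The other Porcn probe set, 1397965_at, read 26.15, 25.0 and 31.4 against 21.1, 14.1 and 34.1. Its groups overlapped and 2 of 3 pairs were higher, with a log2 fold change of 0.34 (SE 0.47), which was 0.029 when scrambled siRNA replicate 2 was left out and 0.66 when replicate 3 of that group was. Wls, the carrier that takes Wnt ligands to the surface, read 743, 708 and 641 with COUP-TFII siRNA and 778, 711 and 774 with the scrambled siRNA. It was lower in 3 of 3 pairs, by little in pairs 1 and 2, and the log2 fold change was -0.11 (SE 0.13, exact permutation p = 0.2).

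**Figure D3:**
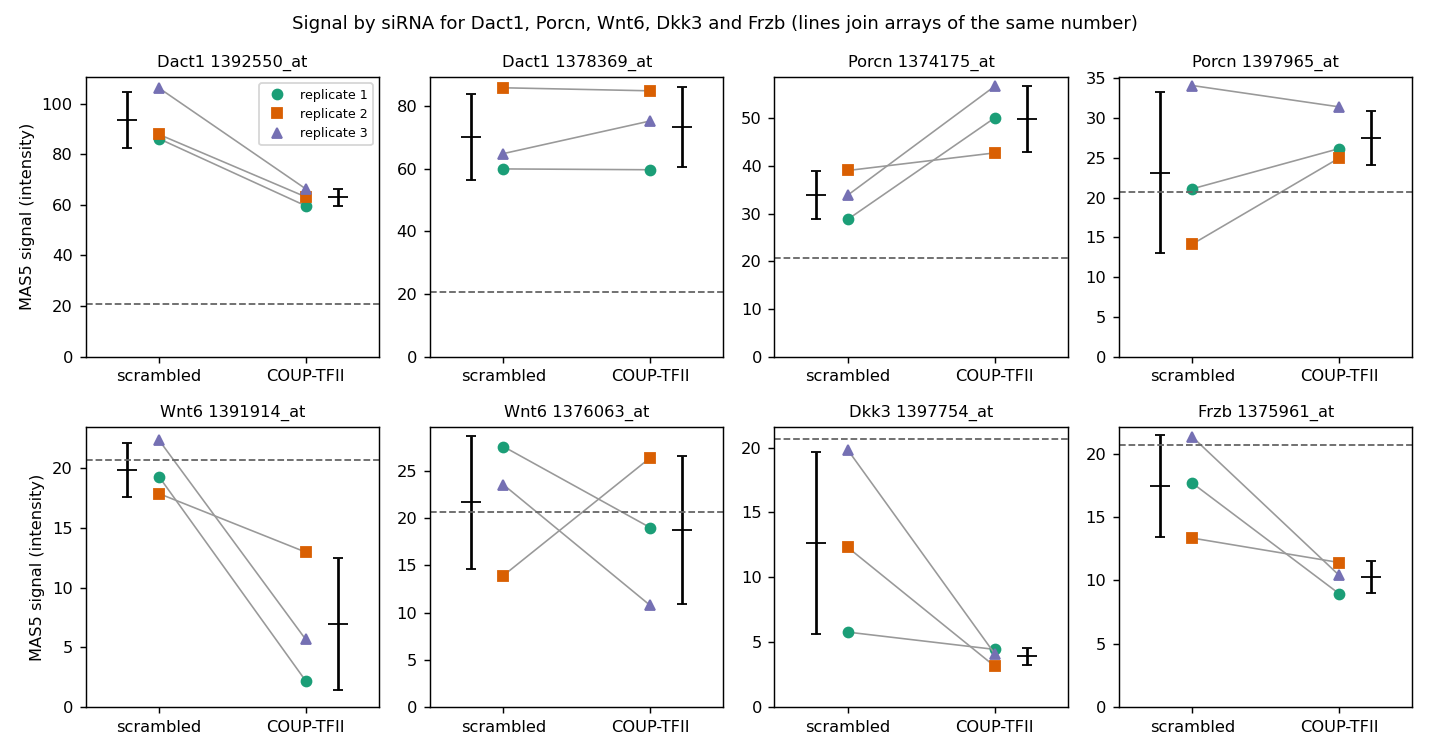
MAS5 signal (linear axis from 0) by siRNA for both probe sets of Dact1, Porcn and Wnt6 and for 1 probe set each of Frzb and, by the platform annotation, Dkk3; symbols are the replicate numbers, grey lines join arrays of the same number, bars are the mean ± SD of 3 arrays and the dashed line is the Bacillus scale of 20.7. Dact1 separates on 1392550_at (63.1 against 93.5 by mean) and not on 1378369_at (73.2 against 70.2), and the group means of Wnt6 1391914_at, Dkk3 and Frzb lie under the dashed line.

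Among the frizzleds, the receptors that bind Wnt ligands, Fzd1, Fzd2, Fzd3 and Fzd6 were above background and Fzd4, Fzd5 and Fzd8 were not. Fzd6, a receptor linked mainly to planar cell polarity, gave 37.8, 53.5 and 104 with COUP-TFII siRNA and 62.7, 89.2 and 137 with the scrambled siRNA. The groups overlapped, since the arrays numbered 1 were low and those numbered 3 high in both, but each COUP-TFII siRNA array was below the scrambled array of its number, by -0.73, -0.74 and -0.40 on the log2 scale. The difference was -0.62, with an SE of 0.42 and p of 0.176 in the unpaired limma fit, and an SE of 0.18 and p of 0.00752 (adjusted p = 0.763) with the replicate block. Leaving out COUP-TFII siRNA replicate 3 moved it to -1.03, and leaving out replicate 1 of that group moved it to -0.30. In the scrambled group it was -0.33 without replicate 3, and leaving out replicate 1 gave -0.90.

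Fzd2 read 42.9, 51.9 and 54.3 against 32.1, 40.3 and 60.7, with overlapping groups and a log2 fold change of 0.21 (SE 0.34). Fzd1, a receptor of the β-catenin branch, read 61.7, 40.2 and 3.23 against 38.5, 24.3 and 35.5, so that COUP-TFII siRNA replicate 3 alone was under the Bacillus scale and 2 of 3 pairs were higher, with a log2 fold change of -0.68 (SE 0.99), which was 0.63 when that array was left out. Fzd3 differed by 0.20 (SE 0.46), and the 5 probe sets of Fzd4, Fzd5 and Fzd8 by -1.07 to 0.14.

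Lrp6, the coreceptor of the β-catenin branch, was above background on every array, while neither probe set of its paralogue Lrp5 was, with differences of -1.02 and 0.72. Lrp6 read 60.0, 50.5 and 68.8 with COUP-TFII siRNA and 72.4, 64.3 and 75.7 with the scrambled siRNA. It was lower in 3 of 3 pairs, and the groups overlapped, with a log2 fold change of -0.25 (SE 0.25, exact permutation p = 0.2). Ryk, a Wnt receptor of the receptor tyrosine kinase family, was read by 2 probe sets. On 1371101_at it gave 175, 256 and 193 against 215, 242 and 174, a difference of -0.023 (SE 0.20). On 1373028_at it gave 176, 216 and 166 against 171, 258 and 194, a difference of -0.15 (SE 0.20). On both probe sets the arrays numbered 2 were the high ones of their group.

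Of the 17 probe sets for secreted antagonists and Kremen1, the surface receptor for Dkk proteins, 13 were lower and 4 higher by mean. Most were dim: 10 were above the Bacillus scale on no array, and only Wif1 was above it on every array. Of the 3 with a group mean above the scale, 1 was lower and 2 were higher, with a median log2 fold change of 0.20. Wif1, which binds Wnt ligands outside the cell, read 850.3, 1084 and 1388 with COUP-TFII siRNA and 977, 1195 and 1438 with the scrambled siRNA. The spread among replicate numbers was far wider than the gap between siRNAs: each COUP-TFII siRNA array was below the scrambled array of its number, by -0.20, -0.14 and -0.050 on the log2 scale, and the groups overlapped. The fold change was -0.13 (SE 0.21), with an exact permutation p = 0.7 without regard to number, and a limma p of 0.149 with the replicate block. Sfrp1, a secreted frizzled-related protein that sequesters ligands, read 28.6, 19.2 and 28.0 against 16.2, 14.8 and 25.2 on 1371861_at, higher in 3 of 3 pairs by a log2 fold change of 0.45 (SE 0.47), with overlapping groups. Its other probe sets, both under the Bacillus scale, differed in opposite directions, by -1.09 (SE 1.05) on 1382878_at and 0.87 (SE 0.98) on 1383266_at.

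Dkk3 is a divergent member of the Dickkopf family. The probe set 1397754_at, a member by its annotation as Dkk3 but named in the study's list as Wwp1, a ubiquitin ligase, read 4.44, 3.14 and 4.11 with COUP-TFII siRNA and 5.77, 12.3 and 19.8 with the scrambled siRNA. Which of these genes it detects was not settled here, so the values below belong to the probe set. The groups did not overlap, yet all 6 values were under the Bacillus scale, and scrambled siRNA replicate 3 was the highest. The log2 fold change was -1.54 (SE 0.72), with an unadjusted limma p of 0.0616, an adjusted p = 1 and an exact permutation p = 0.1, and it moved to -2.02 or -1.13 when replicate 1 or 3 of the scrambled group was left out. The only Dkk3 probe set with a group mean above the Bacillus scale, 1370328_at, differed by 0.20 (SE 0.54), and the other two by -0.90 and -0.089.

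Frzb, a secreted frizzled-related protein, read 8.95, 11.4 and 10.4 with COUP-TFII siRNA and 17.7, 13.3 and 21.3 with the scrambled siRNA on 1375961_at. The groups did not overlap, and only scrambled siRNA replicate 3 was above the Bacillus scale. The log2 fold change was -0.75 (SE 0.54, adjusted p = 1, exact permutation p = 0.1), and -0.016 when signals under the Bacillus scale were set to it. On its other probe set, 1373615_at, Frzb read 17.4, 10.3 and 10.2 against 13.9, 10.8 and 14.3, a difference of -0.077 (SE 0.56) with overlapping groups. The probe sets of Dkk2, Sfrp2, Sfrp4, Sfrp5 and Kremen1 had both group means under the Bacillus scale and differences from -0.9999 (Kremen1) to 0.25.

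In the R-spondin axis, the ubiquitin ligase Znrf3 and the receptor Lgr4 were above background on every array. Znrf3 read 137, 110.2 and 150.4 with COUP-TFII siRNA and 116, 102 and 172 with the scrambled siRNA, a log2 fold change of 0.050 (SE 0.24). Lgr4 read 51.2, 41.5 and 66.5 against 42.7, 52.7 and 59.6, a log2 fold change of 0.026 (SE 0.31). Both overlapped between the groups, with 2 of 3 pairs higher. The ligand Rspo3 was above the Bacillus scale by 1 group mean on 1 of its 2 probe sets (22.9 ± 13.5 against 15.8 ± 5.91), with a difference of 0.35 (SE 0.68), while Rspo1 and Lgr5 were under it.

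Dact1, a scaffold that binds Dishevelled and modulates Wnt signaling inside the cell, had the lowest unadjusted p of the unpaired fit among members above background, on 1 of its 2 probe sets. On 1392550_at the signals were 59.6, 63.2 and 66.4 with COUP-TFII siRNA and 86.2, 87.9 and 106 with the scrambled siRNA. All 6 were above the Bacillus scale, the groups did not overlap, and the pairs differed by -0.53, -0.48 and -0.68 on the log2 scale. The means of 63.1 ± 3.37 and 93.5 ± 11.1 (SD, n = 3) gave a log2 fold change of -0.56 (SE 0.22), which is -32.3% on the linear scale. In the unpaired limma fit its unadjusted p was 0.0320 and its adjusted p 1, and with the replicate block they were 0.00978 and 0.777. With each array centred on its median the unadjusted limma p was 0.0573.

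The Dact1 difference on 1392550_at lay between -0.62 and -0.47 when any 1 array was left out. Its unadjusted limma p was then 0.0745 or 0.0620 when the array left out was replicate 1 or 2 of the COUP-TFII siRNA group. It was 0.050004, just past the threshold, or 0.0996 when that array was replicate 2 or 3 of the scrambled group, and 0.0452 or 0.0467 when it was 1 of the remaining arrays. The other Dact1 probe set, 1378369_at, read 59.6, 84.8 and 75.2 with COUP-TFII siRNA and 59.9, 85.8 and 64.8 with the scrambled siRNA. Its groups overlapped almost fully, with means of 73.2 ± 12.7 and 70.2 ± 13.8 and a log2 fold change of 0.064 (SE 0.26). The platform annotation gives both probe sets the same gene symbol, and which transcripts each one detects was not tested.

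Dact2, a paralogue of Dact1, read 132, 157 and 137 with COUP-TFII siRNA and 175, 152 and 171 with the scrambled siRNA. It was lower in pairs 1 and 3 and slightly higher in pair 2, with a log2 fold change of -0.22 (SE 0.17, exact permutation p = 0.2). Dact3 on 1375890_at read 76.7, 85.5 and 158 against 89.0, 95.3 and 88.2, so that 1 array, COUP-TFII siRNA replicate 3, stood above the other 5, and the difference of 0.16 (SE 0.29) became -0.17 without it. Dvl1, a Dishevelled protein that relays the signal from frizzleds, read 60.4, 95.4 and 73.3 against 48.5, 79.8 and 71.1 on 1369997_at, higher in 3 of 3 pairs by 0.21 (SE 0.29, and -0.0057 when scrambled siRNA replicate 1 was left out), and differed by -0.015 (SE 0.30) on 1397351_s_at. Dvl3 had the widest difference among members above background, 1.34 (SE 0.89), where scrambled siRNA replicate 1 read 2.58 and the other 5 arrays between 20.2 and 40.6. Nkd2, an inhibitor that binds Dishevelled, differed by -0.22 (SE 0.45), and the 3 probe sets of Nkd1 and the single one of Dvl2 were under the Bacillus scale.

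The replicate number held a larger share of the sum of squares than the siRNA in most members. The number has more levels than the siRNA, so its raw share tends to be larger even without any effect. Over the 18 members above the Bacillus scale on all 6 arrays, the number held a median of 69.9% of the sum of squares of the log2 signal. The siRNA held a median of 11.1%. Over all 15572 such probe sets these medians were 68.4% and 6.70%. The number held 92.8% for Wif1, 91.9% for Dact1 on 1378369_at and 90.4% for Wnt4. The siRNA held 87.5% for Dact1 on 1392550_at, 72.1% for Porcn on 1374175_at and 57.6% for Dact2. The number held the larger share in 14 of the 18 members (77.8%), against 86.0% of all such probe sets.

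**Figure D4:**
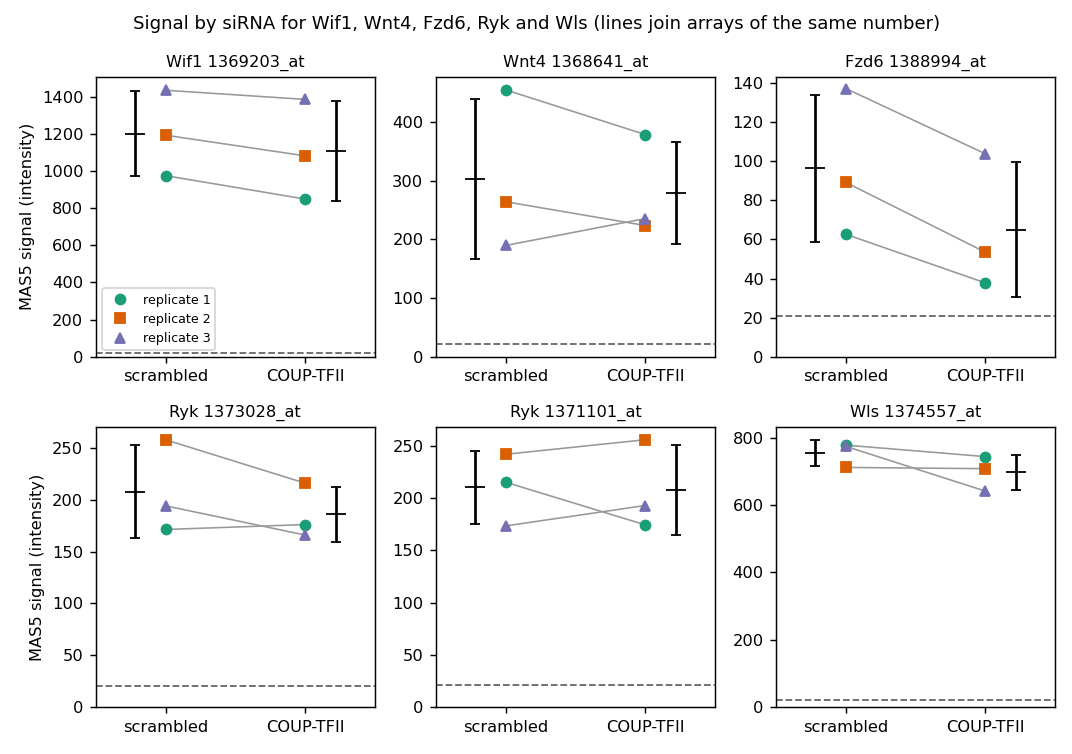
MAS5 signal (linear axis from 0) by siRNA for Wif1, Wnt4, Fzd6, both probe sets of Ryk, and Wls; symbols are the replicate numbers, grey lines join arrays of the same number, bars are the mean ± SD of 3 arrays and the dashed line is the Bacillus scale of 20.7. The lines of Wif1 and Fzd6 run side by side, lower with COUP-TFII siRNA in 3 of 3 pairs, and the replicates lie farther apart than the siRNA groups.

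Signal level went with the direction of the differences. The median log2 fold change of the 72 members was -0.11, beside -0.0031 over all probe sets. By mean 43 members were lower (59.7%, against 50.4% of all) and 29 higher. The 29 members above the Bacillus scale divided evenly, 14 lower and 15 higher, with a median of 0.015. Of the 43 members under it 29 were lower (67.4%, against 51.7% of all probe sets under it) and 14 higher. Their median was -0.36, beside -0.038 over all probe sets under it. The size of this median depended on 1 array, scrambled siRNA replicate 3. That array had 0 member values under 1, where the other arrays had between 3 and 11. It also had the highest median member signal, 18.6. Whether either bears on the shift was not tested. Without that array the median of the members under the Bacillus scale was -0.027, with 23 of 43 lower. Over all probe sets under the scale it was 0.11, with 5237 of 11653 lower. The median of all 72 members was then 0.0061. The median over all 72 was -0.034 without COUP-TFII siRNA replicate 2.

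Other genes of the pathway were read from a list of 71, of which 63 were measured and 51 were above the Bacillus scale. Each gene was read from its probe set with the highest mean signal. In the unpaired limma fit 1 of the 63 was lower at an unadjusted p up to 0.05 (against 1.34% of all probe sets) and 0 were higher, and 0 passed the adjustment. The lower one was Ccnd1, the cell cycle regulator cyclin D1 and a target of β-catenin with TCF factors, at 20.9 ± 17.6 against 47.1 ± 4.80 (SD, n = 3), which is -1.58 on the log2 scale (SE 0.66), with an unadjusted limma p of 0.0422 and an adjusted p = 1. Ccnd1 is also in the list of Wnt genes that the study selected on these same arrays, through another probe set whose values are not given here. Its lower signal is therefore not independent evidence of a direction. Apart from these arrays, the study reports less cyclin D1 mRNA (RT-qPCR) and protein in depleted cells. By RT-qPCR it also reports lower Myc, glutamine synthase (Glul), Axin2 and β-catenin (Ctnnb1). On these arrays Myc differed by -0.14 (SE 0.20) and Glul by -0.067 (SE 0.15). Axin2 differed by 0.26 (SE 0.27) and Ctnnb1 by 0.25 (SE 0.22). Without COUP-TFII siRNA replicate 1 or 3, or scrambled siRNA replicate 1 or 3, the count of lower genes was 0. With the replicate block 4 were lower (against 3.51% of all probe sets): Ccnd1, the destruction complex scaffolds Apc (-0.23) and Apc2 (-0.72), and the glypican Gpc4 (-0.27), each with an adjusted limma p between 0.777 and 0.797. By mean 36 of the 63 were lower (where 50.4% of all probe sets were) and 27 higher. The median was -0.055 beside -0.0031 over all probe sets, and -0.018 when all probe sets of a gene entered through their median. The 16 measured target genes had a median of -0.075, with 9 lower and 7 higher, and the 28 cytoplasmic and nuclear components a median of -0.055, with 17 lower and 11 higher.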

How the data were processed

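RNA of 6 cultures was hybridized to Affymetrix rat 230 2.0 arrays. The deposited values were 1 linear intensity per probe set and array; the authors made them with MAS5 (version not given in the sources used here), subtracting background and normalizing on reference probes. The deposited table held 31099 probe sets and no detection calls; 57 of them, the controls, were not tested. Gene symbols came from the platform annotation: 20826 probe sets had 1 symbol, 436 several and 9780 none, and only the first were named.

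Signals under 1 (7.18% of member values) were set to 1 and log2 was taken. All 31042 probe sets were fitted with limma 3.58.1 in R 4.3.3 (lmFit, eBayes with intensity trend, two-sided, unpaired as in the study's methods), with p-values adjusted by Benjamini-Hochberg over the whole table and thresholds of 0.05; folds are on that log2 scale. The script was tested on simulated data. With 3 arrays per group, p-values measure the spread between these arrays, and their number limits the precision. Dim probe sets carry little more than background, so their folds depend on the floor. Probe sets of a gene were kept apart among the members; signals of different probe sets were ranked only to choose which to describe, since such levels are not comparable.

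Arrays of the same number deviated together (correlation of deviations from the group means 0.111, 0.231 and 0.163 for numbers 1 to 3, and -0.146 to -0.0104 between different numbers). A fit with the replicate block was therefore run. Deviations from a group mean cancel within the group, so positive values for the same number pull down those between different numbers. The negative values are thus not separate evidence of pairing. The labels number the arrays but do not call them paired. Whether cultures or array handling were shared within a number was not tested. Other alternatives were quantile normalization, median centring, other floors, a filter on dim probe sets, no trend, the methods' t-test and leaving out arrays. Values on every array are given for Dact1, Porcn, members whose probe set is in the study's Wnt list (1 of them, annotated Dkk3, under another gene name there), members at an unadjusted p up to 0.05 with or without the block, and the 2 brightest members above background in each role; other per-array values (Fzd1, Lrp6, Dvl1 and the second Wnt6 probe set) and further examples were chosen after their values were seen. The members, lists and tests were chosen with earlier results of these data known. Promoter windows came from RefSeq (GRCr8). Plots used matplotlib 3.10.9 (Python 3.11.15).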

Additional observations from a re-analysis of the deposited data

How the results depend on the processing

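The count of 0 members at an adjusted p under 0.05 was the same in all 15 alternatives, with a lowest adjusted p of 0.763 (Fzd6, replicate block). The 2 members lower at an unadjusted p up to 0.05 became 1 with the filter at the median signal, with the floor at the highest Bacillus signal, with median centring (which lost Dact1) and without both arrays numbered 2 (chosen after seeing the data), and 5 in limma without the trend; with 1 array left out the count ran from 0 to 3. The 0 higher members became 1 with the floor at the highest Bacillus signal and by the methods' t-test, and ran from 0 to 1 with 1 array left out. Apart from the replicate block, the share of all probe sets called in each alternative was not counted. The share of members above background was 50% against each array's own highest Bacillus signal and 52.8% against the 95th percentile of the Bacillus signals. The count of other pathway genes lower was 4 with the replicate block and 0 after quantile normalization, and ran from 0 to 1 with 1 array left out. Of 25 probe sets with values given on every array, 13 kept their direction in every alternative that kept them. With 1 array left out the log2 fold change ran from -0.15 to 0.19 for Lgr4, -0.11 to 0.27 for Znrf3, -0.35 to 0.28 for Wnt4 (0.024 without both arrays numbered 2), -0.18 to 0.094 and -0.28 to 0.019 for the Ryk probe sets 1371101_at and 1373028_at, -0.050 to 0.22 for Dact1 on 1378369_at, -0.17 to 0.36 for Dact3, -0.0057 to 0.36 for Dvl1 on 1369997_at, -1.49 to 0.63 for Fzd1 (0.21 with the floor at the highest Bacillus signal), -0.54 to 0.10 for Wnt6 on 1376063_at, -0.33 to 0.056 for Frzb on 1373615_at, and -0.31 to 0.046 for Wif1. The cause of these shifts was not tested. The replicate block changed no member's call other than that of Fzd6 at an unadjusted p up to 0.05.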
